A study of Mus musculus with 43 samples.

Results

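Keratins are the intermediate filament proteins of epithelial cells, and 10 keratin genes chosen by symbol were followed through every library of a pancreatic cancer cell line: Krt8, Krt18, Krt7, Krt19, Krt20, Krt23, Krt80, Krt14, Krt5 and Krt17. These are 10 of the 14773 genes found in either of 2 expression tables. All 10 were measured in the input series and 8 in the processing experiment. No values were given there for Krt5 and Krt17, so their levels in it are not known. The genes were picked by name and not by a cutoff on a measured value, with earlier results of these data known.

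All libraries come from PD798, a cell line grown out of the pancreatic tumor tissue of KPCY mice. Among the alleles of KPCY mice are Pdx1-cre, which acts in the pancreatic epithelium, 1 conditional p53 allele and a YFP reporter at Rosa, and every group compared here shares the same genotype. The cells were grown in DMEM with 10% FBS, and whether the line is 1 clone is not given in the sources used here. In the processing experiment RNA was taken from bulk cells in 4 conditions of 3 libraries each. Pre-FACS cells were set aside before sorting, Mock cells stood in staining buffer on the bench, Pre-enriched cells were given magnetic particles and red cell lysis buffer and went through the pre-enrichment device, which combines a magnet and acoustic washing, and then the sorter. FACS-only cells came from the same sample and went to the sorter directly. The input series holds 11 single cells, 12 pools of 10 cells and 6 pools of 100 cells, which had been spiked into mouse blood, pre-enriched and sorted by YFP, and 2 libraries of bulk RNA. The sample labels mention blood also for the 4 processing conditions, whereas the study's account of those conditions names none, and which of them is right is not known here. The labels name no separate cultures, so p-values measure only the spread between these libraries, which may be technical.

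Keratin filaments are built from pairs of a type I and a type II protein, so that an epithelial cell makes keratins of both types together. Krt8 (type II) and Krt18 (type I) form the basic pair of simple epithelia, the single-layered linings of ducts and glands. Krt7 (type II) and Krt19 (type I) are added in duct cells and are the keratins by which pancreatic ductal tumors are usually recognized. Krt20 (type I) is a keratin of the intestinal and gastric lining, and Krt23 (type I) and Krt80 (type II) are less studied members of the family. Krt5 (type II) and Krt14 (type I) form the pair of the basal layer of stratified epithelia such as the epidermis, and Krt17 (type I) is a keratin of hair follicles and of injured or activated epidermis.

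The genes lie in both keratin clusters of the mouse genome (mm10). Krt80, Krt7, Krt5 and Krt8 were found in the type II cluster on chromosome 15, between the start of Krt80 at 101347444 and the end of Krt8 at 102004482. Krt18 lies beside them on the same chromosome, from 102028180 to 102032027 on the plus strand, 23697 bases from Krt8, which is read from the minus strand (101996698 to 102004482). Krt18 is thus a type I gene at the edge of the type II cluster. Krt20, Krt23, Krt19, Krt14 and Krt17 lie in the type I cluster on chromosome 11, between 99428403 and 100261029, all on the minus strand.

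Because the Krt8 and Krt18 pair carries much of what follows, and Krt20 is the simple keratin whose level differed most between the tables, the sequence around their starts is shown from 150 bases before to 20 bases after the RefSeq start (GRCm38.p6), read 5′ to 3′ on the strand of the gene. Capitals mark TATAAA on either strand, a TATA box word.
Krt8, chr15:102004323-102004492, minus strand: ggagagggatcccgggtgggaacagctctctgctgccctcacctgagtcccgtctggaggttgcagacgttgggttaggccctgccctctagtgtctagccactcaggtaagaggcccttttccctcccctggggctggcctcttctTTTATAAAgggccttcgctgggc
Krt18, chr15:102028066-102028235, plus strand: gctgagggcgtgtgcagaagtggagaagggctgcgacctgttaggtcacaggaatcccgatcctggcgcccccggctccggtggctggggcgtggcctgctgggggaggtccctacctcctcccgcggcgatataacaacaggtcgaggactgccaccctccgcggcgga
Krt20, chr11:99438134-99438303, minus strand: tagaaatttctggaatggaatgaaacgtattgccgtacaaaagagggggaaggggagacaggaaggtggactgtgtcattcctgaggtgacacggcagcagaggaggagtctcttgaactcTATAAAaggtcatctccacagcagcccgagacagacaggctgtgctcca
The word TATAAA was found in the Krt8 and Krt20 windows and not in that of Krt18, and 8.1% of 32851 promoter windows of the same length hold it. In Krt20 its first base was 29 bases before the start. In Krt8 it overlapped with itself on the opposite strand and lay beside the RefSeq start, which is 140 bases inside the start given by GENCODE. Of the 10 genes 7 had a window (Krt7, Krt8, Krt18, Krt20, Krt23, Krt14 and Krt5), and the windows of Krt7 and Krt14 lie 1360 and 1518 bases from the GENCODE start, so that they are not shown. The word GGGCGG, the core of a GC box, was found 4 times in the Krt7 window and in no other, against 30.3% of all windows, and TGANTCA, an AP-1 word, in none of the 7, against 4.74%. These matches describe the letters of the windows only.

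Some keratin transcripts share long stretches with relatives, which matters because short reads from a shared stretch cannot be assigned to 1 gene. Of the words of 31 bases in the Krt8 transcripts 32.3% recurred in another gene, nearly all of them in the pseudogene Krt8-ps, with a longest shared run of 299 bases. For Krt14 the share was 28.2%, with Krt16 as the main partner, for Krt17 15.8%, for Krt5 12.8% and for Krt18 11.4%. Krt7 (2.11%), Krt80 (0.878%) and Krt19 (0.439%) shared little, and Krt20 and Krt23 shared no such word. The values of Krt8, Krt14, Krt17, Krt5 and Krt18 are therefore uncertain to the extent that the counting split or dropped such reads. Identical runs of 140 bases were found between Krt5 and Krt6a and of 134 bases between Krt14 and Krt16. Because Krt14 lay far apart in the tables, its likeness to Krt16 is shown by a stretch of 164 coding bases in the first exon of Krt14 and of Krt16, a keratin of injured epidermis, in which the 4 bases in capitals differ.
Krt14, chr11:100207002-100207165, minus strand: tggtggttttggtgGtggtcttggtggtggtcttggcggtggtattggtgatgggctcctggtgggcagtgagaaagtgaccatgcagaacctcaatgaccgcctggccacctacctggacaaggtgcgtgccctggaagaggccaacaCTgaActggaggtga
Krt16, chr11:100248461-100248624, minus strand: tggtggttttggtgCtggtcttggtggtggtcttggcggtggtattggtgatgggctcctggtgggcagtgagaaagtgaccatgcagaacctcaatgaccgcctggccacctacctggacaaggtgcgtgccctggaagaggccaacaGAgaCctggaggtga

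In the processing experiment the line expressed Krt18, Krt8, Krt7 and Krt19 at very high levels, and Krt14, the only basal keratin of the 10 measured there, stayed below 1 TPM. TPM, the number of transcripts of a gene scaled to a fixed total, corrects for the length of each gene, so that levels of different genes can be set beside each other, and it carries no record of the read number, so the depth of each library cannot be read from these values. Krt18 was the highest, with 8377 TPM in the lowest library, a median of 8983 and 9896 in the highest. Krt8, its partner, ran from 6465 through a median of 7400 to 8262 TPM. Krt7 followed with 4089, 4340 and 4495 TPM, and Krt19 with 3682, 3892 and 4082 TPM. These 4 keratins of duct cells were the highest of the 8. Krt20 was lower, at 525, 565 and 599 TPM, and Krt23 lower again, at 126, 152 and 171 TPM. Krt80 ran from 25.2 through 34.6 to 43.0 TPM. In the order given, no range overlapped that of the next gene, so the order of the 7 genes was the same in all 12 libraries. Krt14 was listed at 0 in 6 of the 12 libraries and reached 0.649 TPM at most. The members together held between 2.36% and 2.70% of all TPM in a library.

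**Figure D1:**
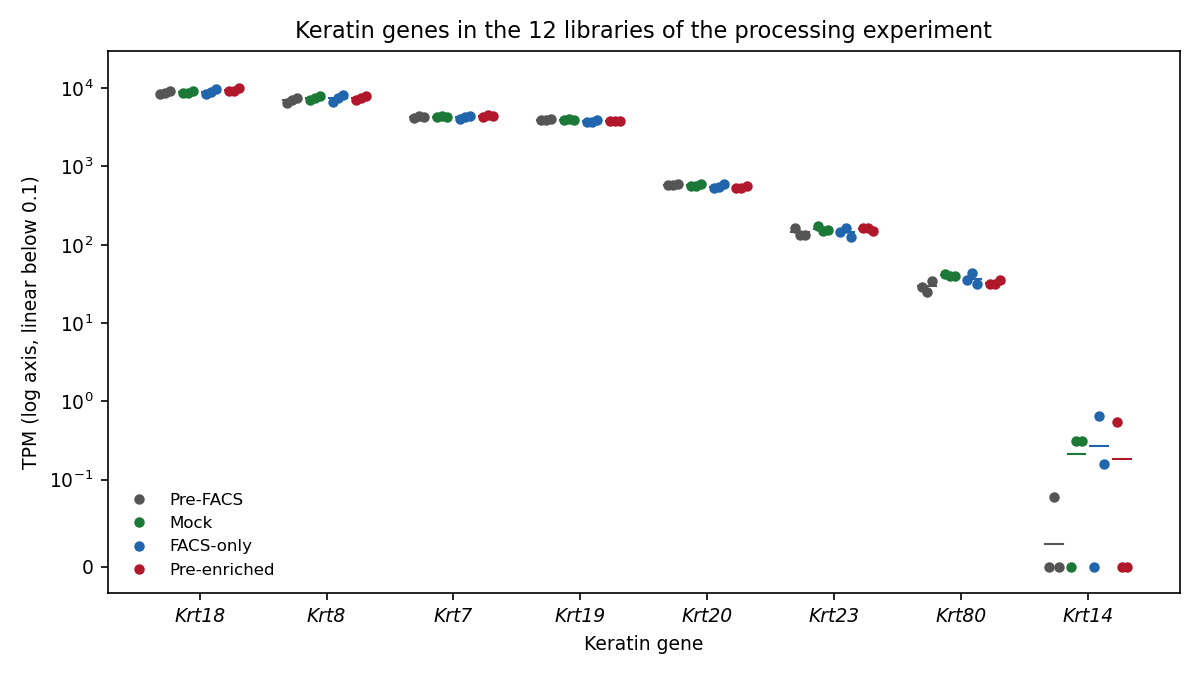
TPM of the 8 keratin genes measured in the processing experiment, on a log axis that is linear below 0.1, with 1 point per library, a short line for the mean of 3 libraries and the condition in color. The genes stand in steps from Krt18 (8377 to 9896 TPM) to Krt80 (25.2 to 43.0 TPM), and Krt14 lies below 1 TPM.

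Type I and type II keratins were near balance in these cells. The type I members summed to between 12820 and 14420 TPM and the type II members to between 10650 and 12710 TPM, a ratio of 1.13 to 1.23. For the pair alone, Krt18 exceeded Krt8 by a factor of 1.17 to 1.30 in each library. The ratio is one of RNA levels and says nothing of the proteins. It also depends on how shared reads were counted, as 32.3% of the Krt8 words and 11.4% of the Krt18 words recur in other genes. The part of such reads in the ratio was not tested.

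Whether handling changes the keratins of a tumor cell was asked by comparing the 4 conditions, since keratins serve to recognize tumor cells in blood. With limma on log2(TPM + 1), 7 of the 8 keratins passed the filter of 1 TPM in at least 3 of 12 libraries, which Krt14 did not, and 0 of 7 differed among the conditions at an adjusted p of 0.05. Across all 12159 genes tested, 0.107% were called in this comparison (13 genes, and 919 at an unadjusted p under 0.05, of the 10 keratins Krt80 alone). None of the 7 was called in any of the 6 pairs of conditions either. The background was 0.123% of genes for FACS-only against Pre-FACS, 0.0493% for Pre-enriched against Pre-FACS and 0.00822% for Mock against Pre-FACS. It was 0% of genes by limma for Pre-enriched against FACS-only, Pre-enriched against Mock and FACS-only against Mock, where 821, 945 and 684 genes had an unadjusted p under 0.05. With backgrounds this low, 0 of 7 does not set the keratins apart from other genes, and the intervals of the differences say more.

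For the 4 abundant keratins of duct cells the intervals were narrow. Over the 6 pairs, the 95% intervals for Krt18, Krt8, Krt7 and Krt19 lay between -0.18 and 0.25 on the log2(TPM + 1) scale. Krt8 held 7128, 7398 and 7911 TPM in the Mock libraries, 6465, 7155 and 7488 in Pre-FACS, 6617, 7402 and 8262 in FACS-only and 7041, 7429 and 7958 in Pre-enriched. All 4 conditions overlapped, and the largest difference, Mock over Pre-FACS, was 0.09 (SE 0.0759, adjusted p = 0.997). It was 0.03 without Pre-FACS library 1, 0.05 without Mock library 3 and 0.14 without Pre-FACS library 3. Krt18 held 8553, 8747 and 9321 TPM in Mock, 8377, 8604 and 9100 in Pre-FACS, 8469, 8868 and 9641 in FACS-only and 9099, 9111 and 9896 in Pre-enriched. Its difference between Pre-enriched and Pre-FACS was 0.11 (SE 0.0576, 95% interval -0.02 to 0.23, adjusted p = 0.602), and 0.07 without Pre-enriched library 3. The lowest Pre-enriched library (9099.2 TPM) lay just below the highest Pre-FACS library (9100.3 TPM), so that these groups overlapped at their edges. Each Pre-enriched library of Krt18 lay above the Pre-FACS library of its own number. With that number as a block in the model, the adjusted p of this pair was 0.14 by limma. For Krt8, the Pre-FACS library was the lowest of the 4 conditions in each library number, which was seen after the fact. With the block, the lowest adjusted p of Krt8 over the pairs was 0.337 by limma, for Pre-enriched over Pre-FACS (0.09). Between Pre-enriched and Mock, Krt8 differed by -0.001, with an interval from -0.16 to 0.16.

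Krt7 held 4299, 4375 and 4229 TPM in Mock, 4153, 4396 and 4267 in Pre-FACS, 4089, 4340 and 4413 in FACS-only and 4340, 4495 and 4454 in Pre-enriched. Its largest difference, Pre-enriched over Pre-FACS, was 0.05 (SE 0.0442, adjusted p = 0.766), and 0.03 without Pre-FACS library 1. Krt19 held 3911, 4082 and 3885 TPM in Mock, 3954, 3899 and 4001 in Pre-FACS, 3682, 3684 and 3946 in FACS-only and 3780, 3827 and 3818 in Pre-enriched. The Pre-enriched libraries of Krt19 lay below all Mock and Pre-FACS libraries, by amounts that did not pass the test (-0.06 and -0.05 on the log2 scale, adjusted p = 0.796 and 0.757 by limma). The share of all genes whose groups lie apart in this way is not given here. Neither gene passed the test in any pair.

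Krt20 and Krt80 showed the lowest unadjusted p-values of the group. Krt20 averaged 542 ± 12.6 TPM (SD, n = 3) in Pre-enriched, 553 ± 35.8 in FACS-only, 576 ± 19.4 in Mock and 585 ± 9.24 in Pre-FACS. The Pre-enriched libraries (532.8 to 556.3 TPM) lay below the Pre-FACS libraries (575.9 to 594.4 TPM), and the difference was -0.11 (SE 0.0508, 95% interval -0.22 to -0.002) with p = 0.0459 and an adjusted p of 0.535 by limma. Krt80 held 42.0, 40.1 and 39.5 TPM in Mock, 29.0, 25.2 and 34.2 in Pre-FACS, 35.1, 43.0 and 31.4 in FACS-only and 31.3, 31.2 and 35.8 in Pre-enriched. The Mock libraries stood above all Pre-FACS and all Pre-enriched libraries, while FACS-only overlapped each of the others. Mock exceeded Pre-FACS by 0.46 (SE 0.12, 95% interval 0.20 to 0.71), with p = 0.00159 and an adjusted p of 0.844 by limma. Krt80 also differed at an unadjusted p under 0.05 between FACS-only and Pre-FACS (0.30, adjusted p = 0.615 by limma) and between Pre-enriched and Mock (-0.30, adjusted p = 0.602 by limma). Krt23 ranged from 126 to 171 TPM with overlapping conditions, and its largest difference, Pre-enriched over Pre-FACS, was 0.15 (SE 0.0898, adjusted p = 0.652). It was 0.24 without Pre-FACS library 1 (adjusted p = 0.315 by limma). For the groups that lay apart in Krt20 and Krt80, the share of all genes with such a separation is not given here either.

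**Figure D2:**
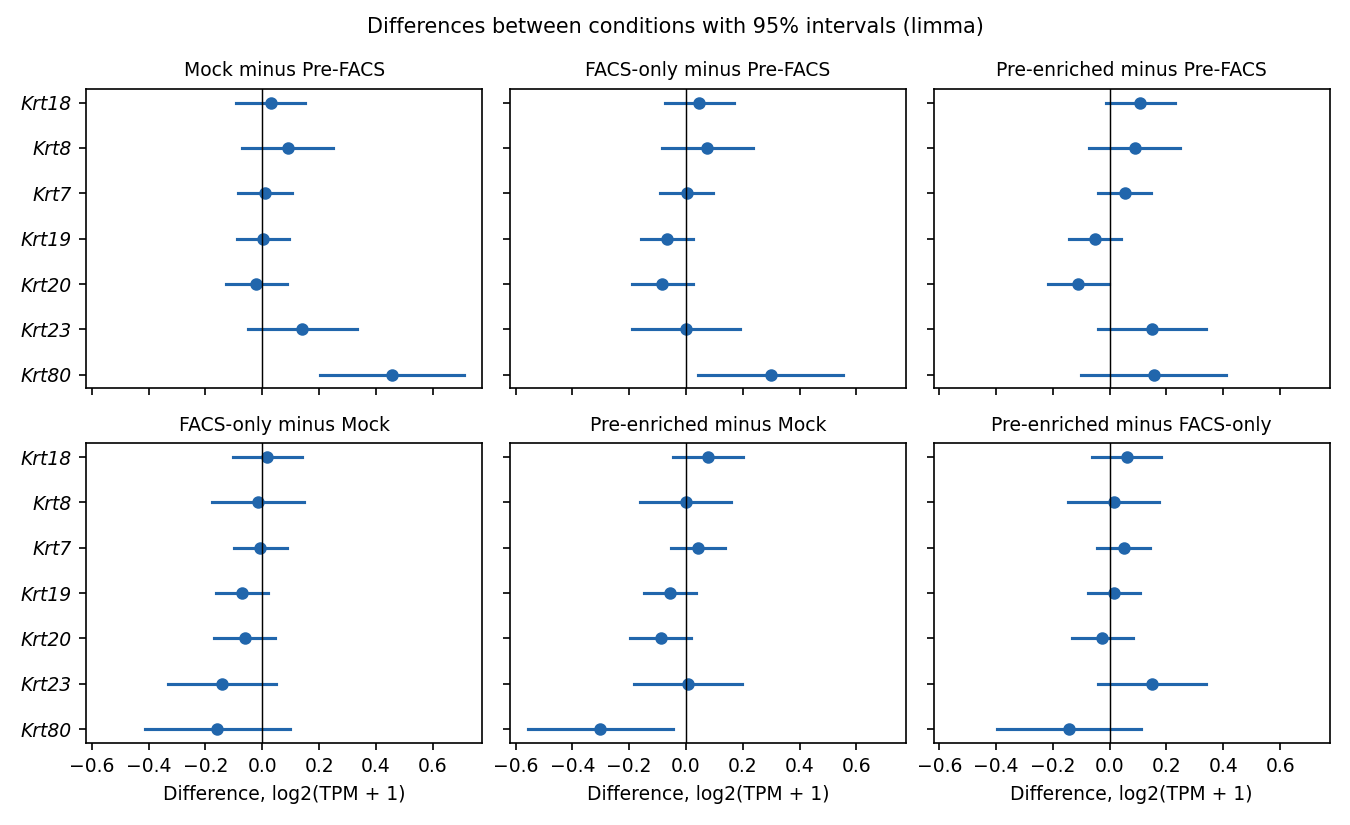
Difference of each pair of conditions on the log2(TPM + 1) scale for the 7 keratin genes tested, as points with 95% intervals from limma (3 libraries per condition). Intervals for Krt18, Krt8, Krt7 and Krt19 stay between -0.18 and 0.25, and that of Krt80 for Mock over Pre-FACS runs from 0.20 to 0.71.

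No partner of the keratins passed the test, which does not set them apart, as 0.107% of all 12159 genes were called among the conditions. Of 25 genes of linkers and regulators of keratin filaments, 22 were tested and 0 were called among the conditions or in a pair. The 5 highest were Ywhae at a mean of 673 TPM, Csnk1a1 at 434, Jup, which links desmosomes to filaments, at 252, Perp, a desmosome protein, at 226 and Itga6, a hemidesmosome integrin, at 178. Itga6 had the lowest p of the list (p = 0.0311, adjusted p = 0.609 by limma). Of 12 other intermediate filament genes, 8 were tested and 0 were called. Vim, the filament of mesenchymal cells, averaged 1020 TPM and the nuclear lamins Lmna, Lmnb1 and Lmnb2 averaged 818, 90.2 and 44.4 TPM. Nes, Prph, Bfsp1 and Synm lay between 1.05 and 2.17 TPM on average. Of 22 epithelial and basal transcription factors, 16 were tested and 0 were called. By limma 4 of the 16 had an unadjusted p under 0.05 (Foxa2, Elf3, Grhl1 and Gata6), against 919 of all 12159 genes. The highest of these factors by level were Hnf4a (374 TPM), Elf3 (259), Foxa1 (136), Klf5 (132), Sox9 (123), Foxa2 (78.0), Pdx1 (77.1) and Esrp2 (58.6). Foxa2 had the lowest p (p = 0.00805, adjusted p = 0.435 by limma). Its mean was 84.5 TPM in Mock and 69.9 TPM in Pre-enriched. Of 17 keratins outside the 10, 13 were measured here and 6 tested. Krt10, Krt79 and Krt83 averaged 4.72, 3.60 and 3.47 TPM and Krt13 and Krt16 1.06 and 1.03 TPM. Krt83, a hair keratin, had the lowest p among them (p = 0.0291, adjusted p = 0.603 by limma). No other keratin of the 13 averaged 1 TPM.

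The ductal label was checked against other markers. All 11 ductal markers were measured in the processing experiment with a mean of at least 1 TPM. Spp1 was the highest at 13020 TPM, and Cdh1 (1009 TPM), Muc1 (931 TPM) and Tspan8 (615 TPM) followed, whereas Epcam stood at 35.0, Cldn4 at 5.92 and Cldn7 at 5.04 TPM. Markers of other cell types were analysed here only in part, and those analysed were low by their summed TPM per library. The sums were 10.7 to 18.9 for 4 of 12 acinar genes (nearly all Cela1) and 0.820 to 1.81 for 2 of 9 fibroblast genes. They were 7.75 to 15.2 for 4 of 12 leukocyte, 0 to 3.33 for 1 of 8 erythroid and 2.14 to 4.45 for 2 of 5 platelet markers. No endocrine marker was analysed here, and the remaining markers could not be checked. In the input series 4 of 12 leukocyte markers were analysed, and their sum ran from 0 to 57.7 TPM in single cells and from 31.95 to 37.9 TPM in bulk RNA, nearly all of it Cd68, a gene of macrophage lysosomes.

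Some libraries of the input series go against their labels and are named before their values are read. Over 12306 genes without the keratins, single cells 6 and 9, 10-cell pools 5 and 12 and 100-cell pools 1 to 3 correlated with each other at r of 0.967 to 0.995, close to the 0.994 between the bulk RNA libraries. The other 9 single cells reached 0.667 to 0.828 with their nearest library, and the other 10 pools of 10 reached 0.902 to 0.955. Single cells 6 and 9 held 11438 and 11223 genes at 1 TPM or more, against 3919 to 8598 in the other 9. The 100-cell pools 4 to 6 correlated at 0.974 to 0.980 with each other and at 0.875 to 0.900 with pools 1 to 3. TPM holds no counts, so whether libraries differ by more than sampling noise could not be tested. Values are therefore given for all libraries and without single cells 6 and 9 and pools 5 and 12. In the 9 other single cells the genes of the table held 54.2% to 96.6% of the fixed TPM total, against nearly all of it in the libraries named. The labels name no separate cultures for the inputs, so the input series was described without tests.

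The 4 keratins of duct cells were measured in every single cell, and the others in some. In single cells 1 to 11, in that order, Krt18 held 7907, 3552, 3245, 14288, 8115, 12146, 3582, 9541, 10196, 3279 and 1721 TPM. The median was 7907 TPM, and 3582 TPM without cells 6 and 9. Krt8 held 4254, 1855, 1331, 5660, 3531, 5227, 3056, 1698, 4071, 1615 and 237 TPM, with a median of 3056 TPM, or 1855 without the same 2 cells. The lowest cell for both was cell 11, which had the second smallest number of genes (4106 at 1 TPM). In the same cell Alas2, the heme synthesis gene of red cell precursors and the only one of 8 erythroid markers analysed here, stood at 278 TPM, and it was listed at 0 in the other 8 cells besides 6 and 9. Its part in the low keratin values of cell 11 was not tested. Krt19 ran from 827 to 6852 TPM (median 3138, or 2627 without cells 6 and 9). Krt7 ran from 337 to 4758 TPM (median 1860, or 950 without them). Among genes with a bulk RNA mean of at least 1000 TPM, 91.6% (76 of 83) were likewise at 1 TPM or more in all 9 other cells, so that this constancy was shared by most genes of this level.

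Krt23 was listed at 0 in 3 of the 11 single cells and ran up to 235 TPM, with a median of 61.6 TPM, or 36.6 TPM without cells 6 and 9. Krt14 was at 202 TPM in cell 4, 42.5 in cell 10 and 12.0 in cell 7, at 185 and 149 in cells 6 and 9, and under 0.2 TPM in the other 6. Krt20 was at 94.5 TPM in cell 3, 2.18 in cell 4, 70.0 and 33.6 in cells 6 and 9, and listed at 0 in the other 7. Krt80 was at 54.8, 9.78 and 29.4 TPM in cells 1, 3 and 4, at 11.5 and 3.60 in cells 6 and 9, and listed at 0 in the other 6. Krt5 and Krt17 were above 0 only in cells 6 and 9, at 4.28 and 4.66 TPM for Krt5 and at 6.32 and 7.79 TPM for Krt17. No cell but 6 and 9 therefore held all 10 keratins, and the other 9 held 4 to 8 of them at 1 TPM or more.

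How common such gaps are was read from genes of like level in the bulk RNA. Of 1842 genes with a bulk RNA mean of 100 to 400 TPM, 19.2% were under 1 TPM in at least 3 of the 9 other cells, as Krt23 was, and 1.79% in at least 6, as Krt14 was. Of 1989 genes at 50 to 100 TPM, 2.01% were listed at 0 in at least 7 of the 9 cells, as Krt20 was, and 5.38% in at least 6, as Krt80 was. The limits of these ranges were set after the values had been seen. A gap in a single cell cannot be told apart from RNA lost in the preparation of the library.

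Krt14 and Krt20 were high in different cells. Of the 9 other cells, those above 10 TPM of Krt14 were cells 4, 7 and 10, and the cell above 10 TPM of Krt20 was cell 3, with cell 4 holding 2.18 TPM of Krt20 beside its Krt14. Krt6a, a type II keratin of activated epidermis outside the 10, was at 400, 531 and 58.9 TPM in cells 4, 7 and 10, and also at 153 and 108 TPM in cells 1 and 5, where Krt14 was under 0.2 TPM. Krt16, which shares the stretch shown above with Krt14, was listed at 0 in all 9 cells, including the 3 with Krt14. Since the cells are few, these patterns are given as values only.

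**Figure D3:**
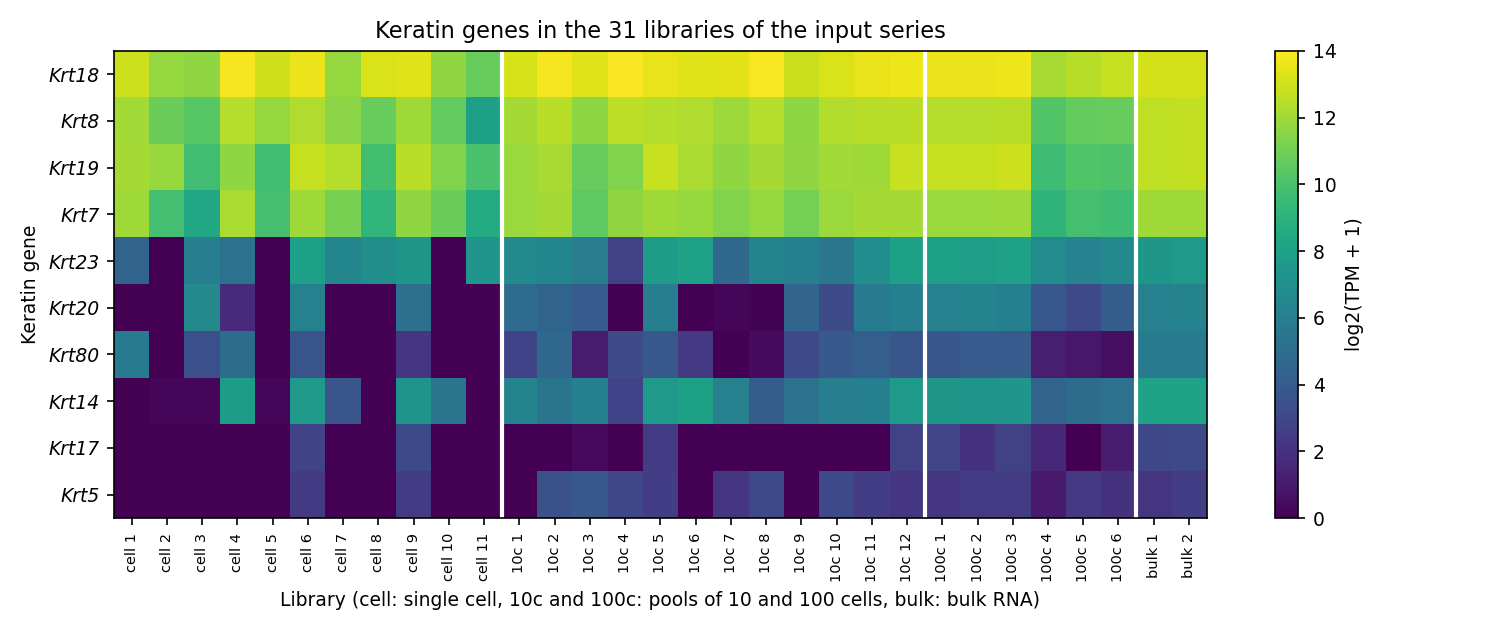
Level of the 10 keratin genes as log2(TPM + 1) in each of the 31 libraries of the input series, from single cells (cell) through pools of 10 (10c) and 100 (100c) cells to bulk RNA (bulk). The rows of Krt18, Krt8, Krt19 and Krt7 are filled in every library, and the rows below have gaps in the other 9 single cells and, fewer, in the pools, while single cells 6 and 9 have none.

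In pools of 10 cells the gaps were fewer. Krt18 ran from 7556 to 15646 TPM with a median of 11490 TPM (10670 without pools 5 and 12), and Krt8 from 3139 to 6245 TPM with a median of 5465 TPM (5252 without them). Krt19 had a median of 4204 TPM (3922 without them), with pools 5 and 12 highest at 7383 and 7198 TPM. Krt7 had a median of 3732 TPM (3598 without them), with a range of 1497 to 4441. Krt14 and Krt23 were at 1 TPM or more in all 12 pools, from 6.07 to 244 TPM and from 5.71 to 262 TPM. Krt20 reached 1 TPM in 8 pools and was listed at 0 in 2, and Krt80 reached 1 TPM in 10 pools. Krt5 reached 1 TPM in 9 pools, with 13.99 TPM in pool 3 as its highest value. Krt17 reached 1 TPM in pools 5 and 12 alone, at 4.41 and 5.72 TPM.

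The pools of 100 cells fell into the 2 sets named above in the keratins as well. Krt8 held 5551, 5470 and 5671 TPM in pools 1 to 3 and 1161, 1646 and 1700 TPM in pools 4 to 6. Krt7 held 3748, 3813 and 3920 TPM against 543, 943 and 811 TPM, and Krt19 held 7098, 6995 and 7712 TPM against 812, 1182 and 1086 TPM. Krt18 ran from 12107 to 12806 TPM and from 4517 to 6899 TPM. Among the lower keratins, Krt14 was at 148 to 170 TPM against 21.5 to 37.5, Krt20 at 64.3 to 75.3 against 7.65 to 16.2 and Krt80 at 12.4 to 15.6 against 0.451 to 1.29. In 9 of the 10 keratins all of pools 4 to 6 lay below all of pools 1 to 3, Krt5 being the exception, and the same was true of 58.8% of the 12325 genes at 1 TPM in at least 3 libraries, with 15.9% lying the other way. Pools 4 to 6 also held fewer genes at 1 TPM (10255 to 10400, against 11488 to 11549). Alas2, the erythroid marker, ran from 4.75 to 11.6 TPM in pools 4 to 6 and from 1.03 to 1.94 TPM in pools 1 to 3, and Cd68 from 74.25 to 84.3 against 49.8 to 53.9 TPM. Cd68 was also found in bulk RNA of the line, where it made up nearly all of a leukocyte sum of 31.95 to 37.9 TPM. The other leukocyte markers are not given for the pools. The parts of gene number and of RNA from blood cells in the lower keratins of pools 4 to 6 were not tested. The median over 6 pools, such as 3585 TPM for Krt8, describes neither set.

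The spread between libraries was larger among single cells than among pools of 10. The 5 simple keratins that reached 100 TPM in each bulk RNA library (Krt7, Krt8, Krt18, Krt19 and Krt23) had a median SD of 1.30 on the log2(TPM + 1) scale over the 11 single cells (1.34 without cells 6 and 9) and of 0.48 over the 12 pools of 10 (0.45 without pools 5 and 12). Over all 2175 genes at 100 TPM or more the medians were 1.72 and 0.38, and over the 82 genes at 1000 TPM or more, the level of 4 of the 5 keratins, they were 0.86 and 0.35. The SDs of Krt7 (1.403), Krt8 (1.30), Krt19 (1.24) and Krt18 (0.99) in single cells were thus above the median of those 82 genes and below their 90th percentile (2.16). Over the 6 pools of 100 the keratin median was 1.06, and it was 0.04 within pools 1 to 3 and 0.31 within pools 4 to 6. Krt18 was the steadiest of the 5 in single cells (SD 0.99) and Krt23 the least steady (SD 3.17).

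Krt18 exceeded Krt8 in all 43 libraries of both tables, but by different factors. The part of reads that Krt8 shares with Krt8-ps in this direction was not tested. The ratio was 1.17 to 1.30 in the processing experiment, 1.31 and 1.33 in the bulk RNA libraries, 1.79 to 3.24 in pools of 10 and 1.17 to 7.27 in single cells (the same range without cells 6 and 9). In pools of 100 it was 2.20 to 2.26 in pools 1 to 3 and 3.53 to 4.06 in pools 4 to 6. The extreme of 7.27 came from cell 11, where Krt8 was lowest. Summed over the 10 genes, type I exceeded type II by a factor of 1.52 to 2.59 in pools of 10, against 1.475 and 1.477 in bulk RNA. Krt18 was the highest of the 10 in 9 of the 11 single cells, and in cells 2 and 7 Krt19 was higher.

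**Figure D4:**
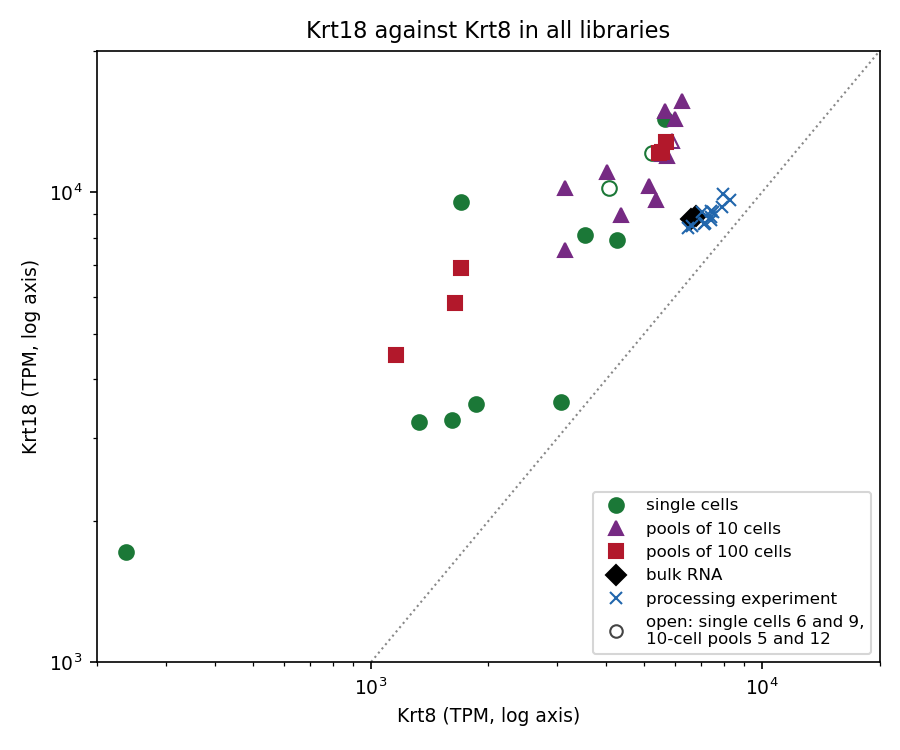
Krt18 against Krt8 in TPM, both on log axes, with 1 point for each of the 43 libraries and a dotted line where both are equal. All points lie above the line, with Krt18 1.17 to 1.33 times Krt8 in the 14 bulk libraries and 1.17 to 7.27 times in single cells, and open symbols mark single cells 6 and 9 and 10-cell pools 5 and 12.

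The keratins of duct cells varied together in some pairs. Over the 9 single cells without 6 and 9, on the log2(TPM + 1) scale, Pearson's r was 0.80 between Krt8 and Krt18 (Spearman's rho 0.82) and 0.75 between Krt8 and Krt7 (rho 0.85). It was 0.79 between Krt7 and Krt19 (rho 0.63) and 0.08 between Krt18 and Krt19 (rho 0.07). With the 2 cells farthest from the median of Krt8 left out, r between Krt8 and Krt18 fell to 0.50 and that between Krt8 and Krt7 to 0.72. Over the 10 pools of 10 without pools 5 and 12, the same pairs gave 0.75, 0.86, 0.85 and 0.10, and without the 2 farthest pools the first 3 became 0.70, 0.54 and 0.63. These are descriptions with no test, since all values of a library share its depth and scaling. Krt8 moved with the number of genes at 1 TPM in the 9 cells (r = 0.68), and the part of library quality in these correlations was not tested. After rescaling to the genes of the table, r over the 9 cells was 0.77 for Krt8 and Krt18 and 0.04 for Krt18 and Krt19.

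The genes most like each keratin were taken by Pearson's r over the 11 single cells, as the top 3 of 12322 genes (the top 2 for Krt18). They were Lmna, Basp1 and Med8 for Krt8 (r of 0.947 to 0.957), Nhlrc2 and Ptdss1 for Krt18 (0.933 to 0.946), Wnt7b, Wrb and Spns2 for Krt7 (0.941 to 0.949) and Epn3, Mall and Sppl3 for Krt19 (0.931 to 0.951). Without cells 6 and 9, Lmna and Med8 remained among the 3 nearest to Krt8, Nhlrc2 to Krt18, Wnt7b and Wrb to Krt7 and Mall to Krt19. Over the 12 pools of 10 the nearest were Cracr2b, Ppp6r3 and Clpb for Krt8, Ckb, Ciao1 and Mfsd6l for Krt18, Gfod2, Lmf2 and Kcnk5 for Krt7 and Wtip, Pkp3 and Ctsd for Krt19, with r between 0.878 and 0.973. None of the genes named was among the nearest of the same keratin in both the 11 single cells and the 12 pools.

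Although both tables carry the label PD798, the keratins of bulk cells were not alike in them. The tables were normalized separately and the sets of genes differ, so the levels are set side by side with no test and no fold change. Krt18 had a mean of 8835 TPM in the 2 bulk RNA libraries of the input series and 8982 in the 12 of the processing experiment, Krt8 6679 and 7355, and Krt7 4059 and 4321. These 3 were close. Krt19 had 6568 and 3872 TPM, Krt23 176 and 151 TPM and Krt80 55.1 and 34.8 TPM. Krt20 was at 68.1 and 76.3 TPM in the bulk RNA libraries, below the lowest processing library at 525 TPM. Krt14 was at 282 and 267 TPM, above the highest processing library at 0.649 TPM. How many of all genes lie apart between the bulk RNA and the processing libraries is not given here. Krt20 and Krt14 are therefore not set apart from other genes by this. Krt5 and Krt17 were at 3.54 to 4.75 and 7.14 to 7.43 TPM in the bulk RNA. Within a library, where no scaling between tables enters, Krt14 amounted to 3.95 and 4.28 per 100 of Krt8 in bulk RNA and at most 0.00876 in the processing experiment. Krt20 amounted to 1.03 and 1.13 per 100 of Krt8 in bulk RNA and to 6.99 to 8.91 in the processing experiment. Krt7 per 100 of Krt8 was alike, at 60.3 and 61.3 against 53.4 to 64.2.

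**Figure D5:**
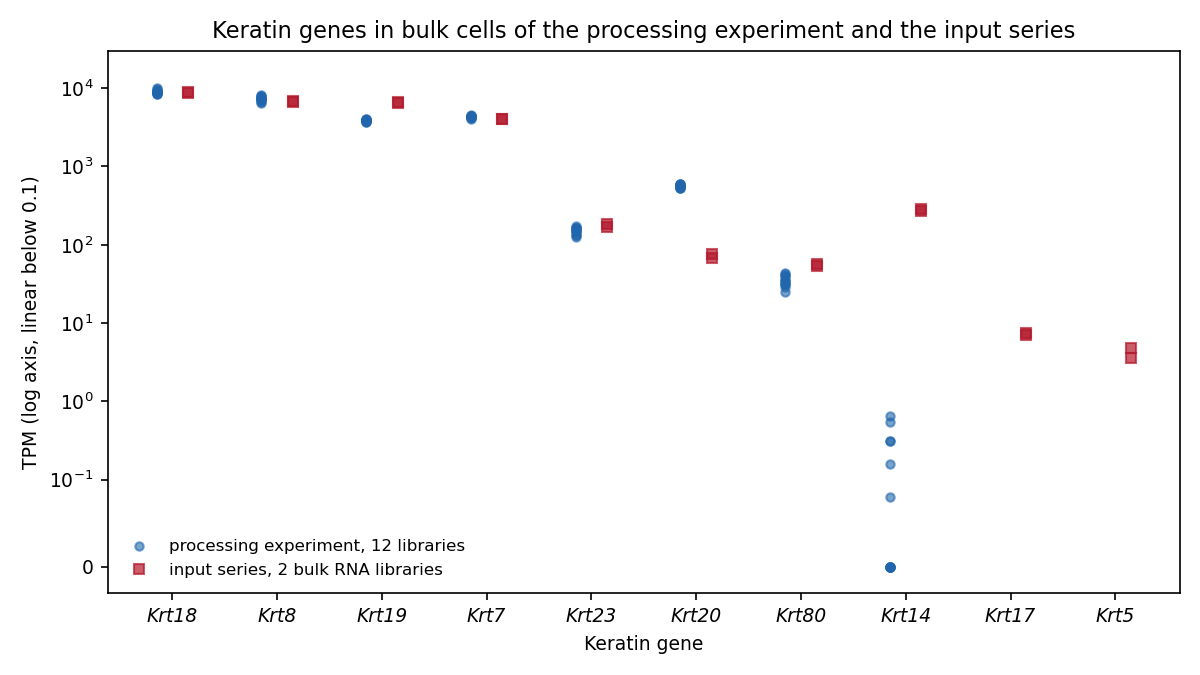
TPM of the 10 keratin genes in the 12 processing libraries (blue) and the 2 bulk RNA libraries of the input series (red), on a log axis that is linear below 0.1. Krt18, Krt8 and Krt7 lie close, Krt20 is higher in the processing experiment (525 to 599 against 68.1 and 76.3 TPM), and Krt14 is higher in the bulk RNA (282 and 267 TPM against at most 0.649); Krt17 and Krt5 are shown for the bulk RNA alone.

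Other epithelial genes differed between the tables along with the keratins. The 9 genes of the squamous or epidermal list measured in the input series summed to 911 and 915 TPM in bulk RNA, of which Krt6a made up 415, Krt14 275 and Lor, a protein of the outer epidermis, 190 TPM. The 6 measured in the processing experiment summed to 7.34 to 11.0 TPM. These sums cover unlike sets of genes, and both hold Krt14, so they partly repeat the difference of that keratin. Lor, which is in both, averaged 1.54 TPM in the processing experiment. Trp63, the transcription factor that defines basal cells, was above 0 in 4 of the 12 processing libraries, at 0.307 TPM at most, and was not analysed here in the input series. Pkp1, Sfn and Grhl2 had 103, 122 and 38.8 TPM in bulk RNA and 0.483, 2.42 and 0.679 TPM in the processing experiment. Epcam and Cldn7 had 827 and 578 TPM against 35.0 and 5.04 TPM. In the other direction, Vim had 79.2 against 1020 TPM, Spp1 201 against 13020 TPM, Muc1 53.9 against 931 TPM and Hnf4a 48.3 against 374 TPM. These genes were chosen after their values had been seen. In bulk cells a lower level in every cell and fewer cells with the RNA cannot be told apart. What sets the tables apart was not tested.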

How the data were processed

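Expression profiles of the PD798 line were analysed in 12 libraries of a processing experiment (4 conditions of 3) and 31 of an input series. The authors prepared libraries with SMART-Seq v4, aligned reads to mm10 with ERCC92 added using STAR (version 2.52 in the submitters' processing notes), counted reads per gene with featureCounts, normalized by the upper quartile and deposited TPM, which corrects for effective gene length. The gene annotation and the rule that chose 13845 and 13817 genes for the tables are not given in the sources used here. Depth per library is not recorded in TPM (the study's text gives only summary depths), so no counting error could be given.

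The deposited TPM values were put on a log2 scale after adding 1, which understates differences of low genes. A gene was kept if 3 or more of the 12 libraries reached 1 TPM (12159 genes), and 1 model of the 4 conditions was fitted with limma (version 3.58.1, R 4.3.3, mean-variance trend), with an F test, contrasts of the 6 pairs and Benjamini-Hochberg adjustment over all genes at 0.05, two-sided. The model was tested on simulated data. Tests were run only within a table, and the input series was described without tests. Conditions, inputs and replicate numbers come from the titles. Named are the 10 keratins, other keratins of at least 1 TPM, the 5 highest linkers, other filaments of at least 1 TPM, the 8 highest transcription factors, the gene of lowest p of each list and the 3 nearest genes, besides genes said to be chosen after their values were seen. Some items are not reported here. The keratins and lists were chosen with earlier results of these data known. Positions and transcripts come from GENCODE for mm10, promoter windows from RefSeq (GRCm38.p6), and shared sequence was measured in words of 31 bases. The alternatives were another pseudocount (0.1), no filter or a mean of 5 TPM, quantile normalization, no trend, a block for the replicate number, a fit of the 6 libraries of a pair alone, a threshold of 0.1, other detection limits, rescaling and left-out libraries. Leaving out single cells 6 and 9 and 10-cell pools 5 and 12 was added after the data had been seen.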

Additional observations from a re-analysis of the deposited data

How the results depend on the processing

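The count of keratins called stayed at 0 of those tested among the 4 conditions and in the 6 pairs under every alternative run, with the pseudocount, filters, quantile normalization, missing trend, threshold of 0.1, libraries of a pair and each library left out in turn among them. Adjusted p among the conditions ranged over the alternatives from 0.322 to 0.759 for Krt80 and from 0.456 to 0.905 for Krt20, and the Krt80 difference between Mock and Pre-FACS from 0.35 to 0.57. With quantile normalization the differences of Krt8 and Krt18 became 0. That method gives a gene of the same rank in every library the same value, so this alternative could not show a change in them. With the replicate number as a block, adjusted p among the conditions was 0.751 for Krt7, 0.5 for Krt8, 0.323 for Krt18, 0.6 for Krt19, 0.456 for Krt20, 0.541 for Krt23 and 0.322 for Krt80, and 0 were called. Over the pairs the lowest adjusted p by limma was then 0.14, for Krt18 between Pre-enriched and Pre-FACS. The numbers were not taken to pair the libraries in the main model. Same-numbered libraries of different conditions correlated in their deviations at -0.04 to 0.23 (median 0.07), and only 2 of 18 pairs exceeded 0.1. Libraries of other numbers correlated at -0.16 to 0.08 (median -0.03), and 9 of 12 libraries correlated best with a library of their own number. The numbers may thus mark a pairing that the main model leaves out. Krt8 and Krt18 were lowest in library 1 and highest in library 3 in 4 of 4 conditions, which was seen after the fact. Krt20 was lowest in library 1 in 2 conditions and highest in library 3 in 4. These counts were 3 and 1 for Krt7, 2 and 2 for Krt19, 0 and 2 for Krt80 and 0 and 0 for Krt23. For all genes the counts of calls were less steady. Among the conditions 13 genes were called, 7 without a filter, 1 without the trend, 61 with the block and 1 to 17 with a library left out. For FACS-only against Pre-FACS 15 were called, 10 without a filter, 0 without the trend, 77 with the block and 5 to 24 with a library left out, and for Pre-enriched against Pre-FACS 6, 37 with the block, 4 with the 6 libraries of the pair and 1 to 7 with a library left out. For Mock against Pre-FACS 1 was called, 7 with the block and 0 without the trend, with the pair alone or with some library left out. For the pairs with 0 calls the block gave 7 (Pre-enriched against FACS-only), 2 (Pre-enriched against Mock) and 4 (FACS-only against Mock), and other alternatives 0 to 4. The number of keratins at 1 TPM in most of the single cells was 5, and 6 for values above 0 or without cells 1 to 4, and the median SD of the simple keratins ranged from 1.20 (rescaled) to 1.398 (without cells 1 to 4). The lack of a depth for each library limits all values of low keratins.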
